A study of Mus musculus with 18 samples.

Results

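The glutathione S-transferase (GST) genes described here are *Gstp1*, *Gstp3*, *Gsta3*, *Gsta4*, *Gstm1*, *Gsto1*, *Gstk1*, *Mgst1*, *Mgst2* and *Mgst3*, taken by gene name from the table of counts. They are 10 of the 56748 genes listed there, of which 27701 had a count in some library. RNA was sequenced from RAW 264.7, an immortalized line of mouse macrophages, so all 18 libraries come from 1 line, with 3 biological replicates per condition by the study's account. The study asked how tert-butylhydroquinone (TBHQ), a phenolic food antioxidant, changes the response of these cells to lipopolysaccharide (LPS, from the bacterial outer membrane) and to poly(I:C) (PIC, a synthetic double-stranded RNA). There were 6 conditions. Control cells were untreated, and TBHQ cells received 5 µM for 4 h and were harvested then. LPS cells received 0.1 µg/mL and PIC cells 20 µg/mL, both for 12 h. The LPS+TBHQ and PIC+TBHQ cells received TBHQ for 4 h and then the stimulus for another 12 h. TBHQ was given from a stock in DMSO, and the study describes no DMSO control for the sequenced cells. The cells given TBHQ alone were harvested before the stimulated cells, so LPS+TBHQ against LPS and PIC+TBHQ against PIC are the comparisons of TBHQ among cells with equal time on the stimulus. Even there, TBHQ cannot be told apart from its DMSO or from any difference in total time in culture. In the comparisons with control, the treatment and any difference in time in culture cannot be told apart. No cells given TBHQ alone were harvested as late as the stimulated ones. A later effect of TBHQ and a joint effect with the stimulus therefore cannot be told apart.

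GSTs join the tripeptide glutathione to reactive, electron-poor compounds, which makes these less harmful and marks them for export from the cell. The soluble enzymes fall into classes named by Greek letters, here alpha (*Gsta3*, *Gsta4*), mu (*Gstm1*), pi (*Gstp1*, *Gstp3*) and omega (*Gsto1*), while the kappa enzyme (*Gstk1*) sits in mitochondria and peroxisomes. The microsomal enzymes (*Mgst1*, *Mgst2*, *Mgst3*) are an unrelated family of membrane proteins called MAPEG, some of which also act on leukotrienes, the lipid mediators that macrophages release. Several GST genes are classical targets of the transcription factor Nrf2, which phenolic antioxidants such as TBHQ activate.

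Marker genes were set against the label of the cells. All 10 macrophage markers examined had more than 3 counts in every library, with a summed level between 5730 and 6720 FPKM (fragments per kilobase of transcript, here scaled to a library size close to the TMM-scaled one), led by *Lyz2* at a mean of 4020 FPKM. The 4 hepatocyte markers (*Alb*, *Apoa1*, *Ttr*, *Cyp3a11*), which stand for the best known site of GSTs, were at the floor of detection in every library, as were the 4 epithelial markers. The fibroblast list summed to at most 0.122 FPKM, with *Col1a1* and *Col1a2* at the floor. Of its other genes, *Pdgfra* was above the floor in 3 libraries (at most 8 counts) and *Dcn* in 3 (at most 9). The 3 endothelial genes summed to at most 0.235 FPKM, led by *Kdr* at a mean of 0.109 FPKM, and none of the 3 was at the floor throughout; *Kdr* was above it in all 18 libraries, with 7 to 26 counts, *Cdh5* in 5 and *Pecam1* in 2. The libraries held between 14423390 and 18851626 counts, with a median of 15742337. The floor was set at 3 counts in a library, which is 0.169 to 0.217 CPM (counts scaled to the same TMM-scaled library size), and a gene is called at the floor in a condition where none of its 3 libraries passed it.

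At these depths 5 of the 10 genes were above the floor in every library: *Gstp1*, *Gstm1*, *Gsto1*, *Mgst2* and *Mgst3*. *Gstp3* was at the floor in control and TBHQ cells and above it in the 4 stimulated conditions. *Gsta3* was at the floor in control, TBHQ, LPS and PIC cells and above it only in LPS+TBHQ and PIC+TBHQ cells. *Gsta4*, *Gstk1* and *Mgst1* were at the floor in all 6 conditions. In untreated cells *Gsto1* and *Mgst3* were the main GST transcripts, with 36.4% ± 2.85 and 34.6% ± 3.29 of the summed FPKM of the 10 genes (SD, n = 3), followed by *Gstm1* with 16.9% ± 0.562 and *Mgst2* with 9.0% ± 0.945. *Gstp1* and *Gstm1* share sequence with other genes, as given below. Their shares are too low if reads in those stretches were left uncounted.

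The summed level of the 10 genes was lower with either stimulus alone than in control, and higher where TBHQ came first than with the stimulus alone. It was 72.2 ± 2.1 FPKM in control, 69.0 ± 3.65 in TBHQ, 54.8 ± 2.29 in LPS, 77.5 ± 0.356 in LPS+TBHQ, 50.4 ± 2.21 in PIC and 69.7 ± 2.04 in PIC+TBHQ cells (SD, n = 3). The make-up of the sum differed as well. *Mgst3* made up 20.4% ± 0.705 of it in LPS and 18.5% ± 0.928 in LPS+TBHQ cells, and *Gstm1* 20.9% ± 0.747 and 26.8% ± 0.34. *Mgst3* held 21.5% ± 2.98 in PIC and 20.1% ± 1.28 in PIC+TBHQ cells, so its share was already below that of control with the stimulus alone. In PIC cells *Gstm1* held 24.9% ± 1.77 and *Gsto1* 32.4% ± 1.52. In PIC+TBHQ cells *Gstm1* held 29.5% ± 1.21, more than *Gsto1* with 27.8% ± 0.152. In bulk RNA, fewer cells that express a gene and less RNA per cell cannot be told apart.

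**Figure D1:**
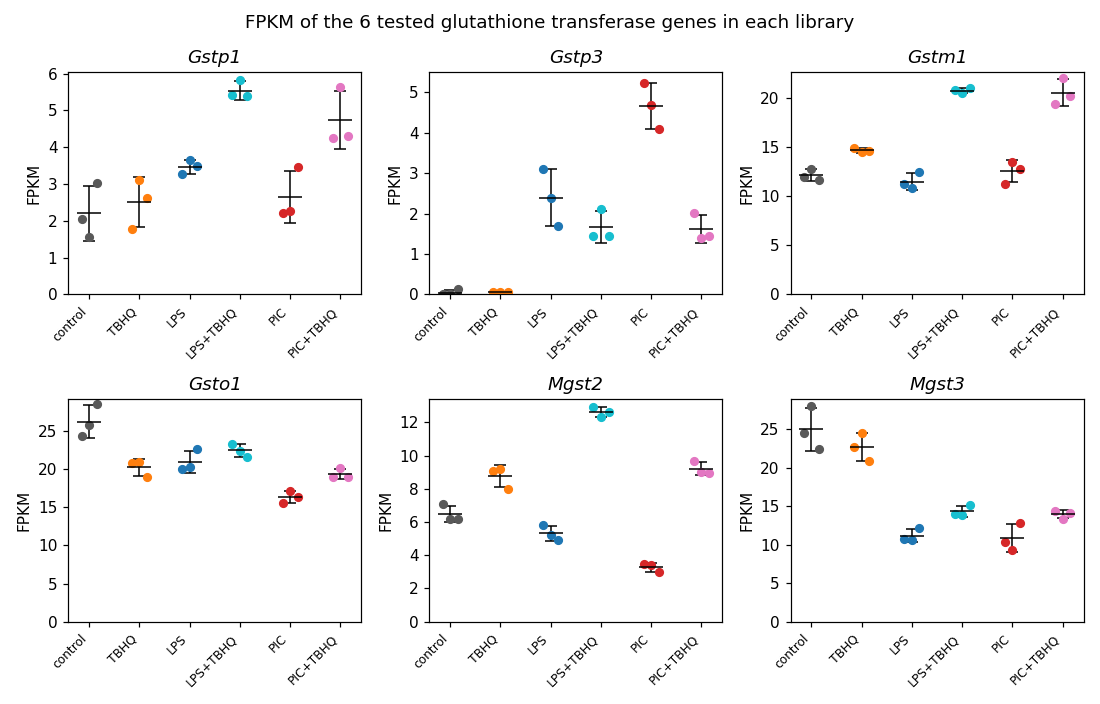
Level in FPKM (y axis) of the 6 GST genes that entered the test, in each of the 6 conditions (x axis). Points are libraries, and bars are the mean and SD of 3. By mean, *Gstm1* and *Mgst2* are highest in the LPS+TBHQ and PIC+TBHQ conditions, though *Mgst2* libraries of PIC+TBHQ overlap those of TBHQ alone. *Gstp3* is at the floor without a stimulus, and *Mgst3* is lower in all 4 stimulated conditions than in control.

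Change was tested in edgeR by quasi-likelihood, and p was adjusted by the Benjamini-Hochberg method over the 13691 genes that passed a filter on low counts, and a gene is called changed at an adjusted p (FDR) below 0.05 with no limit on the fold. Of the 10 GST genes, 6 passed the filter (*Gstp1*, *Gstp3*, *Gstm1*, *Gsto1*, *Mgst2*, *Mgst3*). *Gstp3*, at the floor in control and TBHQ cells, passed only through its stimulated libraries. Its calls against control are therefore partly set by the filter and are counted below as a description. Changes are given as log2 fold change with the standard error from the 3 libraries of each condition. The comparisons with control share the same 3 control libraries, and the values are set side by side for that reason.

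Among cells on the same stimulus, *Gstp1*, *Gstm1*, *Mgst2* and *Mgst3* were higher with TBHQ first, under LPS and under PIC. In LPS+TBHQ against LPS, 4 of the 10 genes were called higher (*Gstp1*, *Gstm1*, *Mgst2*, *Mgst3*) and 0 lower, where 23.9% of all genes tested were called. In PIC+TBHQ against PIC, 5 were called higher (the same 4 and *Gsto1*) and 1 lower (*Gstp3*), where 31.3% of all genes were called. TBHQ alone against control had 3 called, *Gstm1* and *Mgst2* higher and *Gsto1* lower, where 29.0% of all genes were called. The counts are of 10 genes, 6 of them tested, while the shares are over genes tested, so they stand side by side as a description.

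With a stimulus alone, *Gstp3* was higher and *Gsto1*, *Mgst2* and *Mgst3* were lower, under LPS and under PIC. For LPS against control, 5 were called: *Gstp1* and *Gstp3* higher, and *Gsto1*, *Mgst2* and *Mgst3* lower, where 48.1% of all genes were called. For PIC against control, 4 were called: *Gstp3* higher, and *Gsto1*, *Mgst2* and *Mgst3* lower, where 58.7% of all genes were called. With TBHQ before the stimulus, all 6 tested genes differed from control after LPS, where 43.7% of all genes were called, and after PIC, where 52.4% were called. In both cases *Gstp1*, *Gstp3*, *Gstm1* and *Mgst2* were higher and *Gsto1* and *Mgst3* lower. PIC against LPS had 3 called, *Gstp3* higher and *Gsto1* and *Mgst2* lower, where 27.7% of all genes were called.

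The mu class gene *Gstm1* (ENSMUSG00000058135) encodes a soluble transferase that acts on many electrophiles. Its level was 12.0, 12.8 and 11.7 FPKM in the control libraries, 11.2, 10.8 and 12.5 in LPS and 11.3, 13.5 and 12.8 in PIC. It was 14.9, 14.5 and 14.6 FPKM with TBHQ alone, 20.8, 20.5 and 21.0 in LPS+TBHQ and 19.4, 22.1 and 20.2 in PIC+TBHQ. The 9 libraries without TBHQ overlapped across control, LPS and PIC, all 3 TBHQ libraries lay above them, and all 6 libraries with TBHQ and a stimulus lay above those. *Gstm1* was 1.81-fold higher in LPS+TBHQ than in LPS (log2 fold change 0.85 ± 0.064, edgeR FDR 1.2e-10). It was 1.65-fold higher in PIC+TBHQ than in PIC (0.72 ± 0.093, edgeR FDR 4.1e-09). Against control *Gstm1* was higher by 0.76 ± 0.042 in LPS+TBHQ (edgeR FDR 3.3e-10) and 0.75 ± 0.066 in PIC+TBHQ (edgeR FDR 3.7e-10). With a stimulus alone *Gstm1* did not pass the test, with -0.09 ± 0.074 for LPS (edgeR FDR 0.39) and 0.03 ± 0.086 for PIC (edgeR FDR 0.801). The PIC value has no stable sign: scaled by total library size it was -0.19 with an FDR of 0.045 (0.03 after the shift of all genes is taken off), where the FDR ran from 0.045 to 0.973 over the alternatives. The rise with TBHQ alone, harvested at 4 h, was smaller, 0.27 ± 0.042 (edgeR FDR 0.0111), and without control replicate 3 its FDR was 0.0582 (0.00662 to 0.0582 over the alternatives). Of the words of 50 bases in the longest annotated *Gstm1* transcript, 23.1% also occur in other genes, among them *Gstm2* and *Gstm3*, which had at most 1 and 3 counts in a library.

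The microsomal gene *Mgst2* (ENSMUSG00000074604), whose enzyme can couple glutathione to leukotriene A4, had the largest rises over the same stimulus among the 6 members tested with edgeR. Its level was 7.07, 6.18 and 6.20 FPKM in control, 5.83, 5.19 and 4.91 in LPS and 3.46, 3.42 and 2.97 in PIC. With TBHQ it was 9.08, 9.18 and 7.98 FPKM alone, 12.9, 12.3 and 12.6 before LPS and 9.65, 8.99 and 8.97 before PIC. Without TBHQ the libraries of control, LPS and PIC formed 3 separate levels in falling order, and every library with TBHQ lay above all 9 of them. *Mgst2* was 2.37-fold higher in LPS+TBHQ than in LPS (1.24 ± 0.074, edgeR FDR 2.8e-15) and 2.84-fold higher in PIC+TBHQ than in PIC (1.5 ± 0.08, edgeR FDR 2.6e-16). With PIC alone it was at 0.499 of control (-1.0 ± 0.097, edgeR FDR 4.2e-12). With LPS alone it was at 0.816 of control (-0.29 ± 0.096, edgeR FDR 0.0034), and PIC stood below LPS by -0.71 ± 0.1 (edgeR FDR 1.9e-07). With TBHQ alone *Mgst2* was above control by 0.43 ± 0.092 (edgeR FDR 3.6e-05). Where TBHQ preceded the stimulus, *Mgst2* ended above untreated cells, by 0.95 ± 0.067 with LPS (edgeR FDR 3.9e-13) and 0.50 ± 0.073 with PIC (edgeR FDR 9.5e-07).

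The related gene *Mgst3* (ENSMUSG00000026688), whose enzyme also reduces lipid peroxides, differed mainly between stimulated and unstimulated cells. It had 24.6, 28.0 and 22.4 FPKM in control and 22.7, 24.6 and 20.9 with TBHQ alone. It had 10.8, 10.6 and 12.2 FPKM in LPS and 14.0, 13.9 and 15.2 in LPS+TBHQ. It had 10.4, 9.31 and 12.9 FPKM in PIC and 14.4, 13.4 and 14.2 in PIC+TBHQ. The control and TBHQ libraries overlapped, and all 12 stimulated libraries lay below them. *Mgst3* was at 0.447 of control in LPS (-1.16 ± 0.11, edgeR FDR 5.8e-12) and at 0.433 of control in PIC (-1.21 ± 0.16, edgeR FDR 1.2e-12). With TBHQ before the stimulus the level was a little higher, by 0.36 ± 0.073 for LPS (edgeR FDR 0.0136) and 0.37 ± 0.14 for PIC (edgeR FDR 0.00958), with no overlap of libraries. It stayed under control in both, by -0.81 ± 0.1 (edgeR FDR 1.0e-08) and -0.84 ± 0.099 (edgeR FDR 4.0e-09). With 1 library fewer, these rises kept their direction and some lost the call. For LPS the values were 0.33 (FDR 0.0563) without LPS replicate 1, 0.32 (FDR 0.0637) without LPS replicate 2 and 0.31 (FDR 0.0677) without LPS+TBHQ replicate 3, where the FDR ran from 0.00566 to 0.0677 over the alternatives. For PIC they were 0.32 (FDR 0.0541) without PIC replicate 1 and 0.25 (FDR 0.109) without PIC replicate 2, with 0.00122 to 0.109 over the alternatives.

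The omega class gene *Gsto1* (ENSMUSG00000025068), whose enzyme reduces disulfides and dehydroascorbate more than it conjugates, was highest in untreated cells. Its level was 24.3, 25.8 and 28.5 FPKM in control, 20.8, 20.9 and 18.9 with TBHQ, 20, 20.2 and 22.6 in LPS and 15.5, 17.1 and 16.3 in PIC. It was 23.3, 22.4 and 21.6 FPKM in LPS+TBHQ and 19.0, 20.1 and 19.0 in PIC+TBHQ. Each control library lay above every other library, and the 3 PIC libraries lay below all others. *Gsto1* was below control with TBHQ alone (-0.38 ± 0.083, edgeR FDR 1.4e-05), with LPS (-0.34 ± 0.086, edgeR FDR 4.2e-05) and most with PIC (-0.70 ± 0.078, edgeR FDR 1.8e-11). PIC+TBHQ was above PIC by 0.26 ± 0.049 (edgeR FDR 0.00364). PIC was below LPS by -0.37 ± 0.07 (edgeR FDR 6.7e-05). With TBHQ first, the level was still under control, by -0.24 ± 0.073 for LPS (edgeR FDR 0.00208) and -0.45 ± 0.071 for PIC (edgeR FDR 3.2e-07). LPS+TBHQ against LPS was 0.10 ± 0.064 with overlapping libraries (edgeR FDR 0.315).

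The pi class gene *Gstp1* (ENSMUSG00000060803), whose enzyme is widespread outside the liver and also binds stress kinases, was counted at low level and with wide spread. It had 2.06, 1.55 and 3.02 FPKM in control, 1.78, 3.12 and 2.62 with TBHQ, 3.27, 3.64 and 3.48 in LPS and 2.22, 2.28 and 3.47 in PIC. It had 5.41, 5.83 and 5.38 FPKM in LPS+TBHQ and 4.25, 5.64 and 4.31 in PIC+TBHQ. Control, TBHQ and PIC libraries overlapped, while all 6 libraries with TBHQ and a stimulus lay above the other 12. *Gstp1* was 1.59-fold higher in LPS+TBHQ than in LPS (0.67 ± 0.059, edgeR FDR 0.00625) and 1.76-fold higher in PIC+TBHQ than in PIC (0.82 ± 0.24, edgeR FDR 0.00139). Against control it was higher by 1.31 ± 0.27 in LPS+TBHQ (edgeR FDR 8.0e-07) and by 1.08 ± 0.3 in PIC+TBHQ (edgeR FDR 2.1e-05). TBHQ alone gave 0.17 ± 0.35 (edgeR FDR 0.616), a value whose sign turns when control replicate 2 or TBHQ replicate 2 is left out (-0.03 and -0.02). The rise with LPS alone, 0.64 ± 0.27 (edgeR FDR 0.0124), was 0.43 with an FDR of 0.115 without control replicate 2 (0.00109 to 0.115 over the alternatives). The values for PIC were not called against control (0.26 ± 0.34, edgeR FDR 0.313) or against LPS (-0.37 ± 0.21, edgeR FDR 0.196). Without control replicate 3 the first had an FDR of 0.0446 (0.0446 to 0.956), and without PIC replicate 3 the second had 0.0431 (0.0431 to 0.47). Over the alternatives the first value ran from 0.02 to 0.56 and the second from -0.63 to -0.26. Of the words of 50 bases in the longest *Gstp1* transcript, 62.3% also occur in *Gstp2* or the pseudogene *Gstp-ps*, so reads in those stretches cannot be assigned to 1 gene by sequence alone. *Gstp2* had at most 4 counts in a library. If such reads were left uncounted, the levels of *Gstp1* and of *Gstp2* are both too low, so the few *Gstp2* counts do not settle this.

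The neighbouring pi class gene *Gstp3* (ENSMUSG00000058216) was at the floor in unstimulated cells and above it in all stimulated ones. Its counts were 0, 0 and 2 in the control libraries and 1, 1 and 1 with TBHQ, so no fold is given between those conditions. They were 40, 31 and 22 in LPS, 65, 59 and 63 in PIC, 22, 32 and 23 in LPS+TBHQ and 28, 18 and 21 in PIC+TBHQ. All 12 stimulated libraries lay above all 6 unstimulated ones, and the PIC libraries lay above all others. Taken over the TMM-scaled library size, its counts were 52.4 times control in LPS (93 counts against 2, 95% Clopper-Pearson counting interval 14.1 to 439, edgeR FDR 3.9e-10). In PIC they were 101 times control (187 counts against 2, interval 27.5 to 839, edgeR FDR 2.2e-13). They were 36.5 times control in LPS+TBHQ (77 counts, interval 9.76 to 307, edgeR FDR 1.6e-08) and 35.5 times in PIC+TBHQ (67 counts, interval 9.45 to 299, edgeR FDR 1.7e-08). As the gene passed the filter only through its stimulated libraries, these FDRs against control are not independent of the filter. Both control counts came from replicate 3. Without it control is at 0, and with the floor of 3 counts in each of the 2 control libraries left, *Gstp3* was at least 11.4-fold higher in LPS, 21.9-fold in PIC, 7.92-fold in LPS+TBHQ and 7.71-fold in PIC+TBHQ. Of the 6 tested members, *Gstp3* was the 1 called lower with TBHQ before a stimulus: PIC+TBHQ was at 0.351 of PIC (-1.51 ± 0.19, edgeR FDR 4.9e-05) with no overlap. LPS+TBHQ against LPS was -0.52 ± 0.29 with overlapping libraries (edgeR FDR 0.221). PIC was above LPS by 0.95 ± 0.26 (edgeR FDR 0.00599), and without LPS replicate 3 the FDR was 0.0585 (6.1e-04 to 0.0585). The words of 50 bases in the longest *Gstp3* transcript occur in no other gene. In the coordinates of the count table, *Gstp3* spans 4107477 to 4109569 on chromosome 19 and *Gstp1* 4085407 to 4087985.

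Whether the TBHQ change depends on the stimulus was tested directly, as the difference of the PIC+TBHQ against PIC and LPS+TBHQ against LPS changes. edgeR called 0 of the 10 GST genes, where 1.83% of all genes tested were called, and 2 had an unadjusted p under 0.05 (*Gstp3* and *Mgst2*). DESeq2 also called 0, with 1 at an unadjusted p under 0.05, but it gave no adjusted p in this test for *Gstp1* or *Gstp3*. The difference was -0.99 ± 0.35 for *Gstp3* (edgeR FDR 0.234) and 0.26 ± 0.11 for *Mgst2* (edgeR FDR 0.295). The remaining differences were 0.14 ± 0.25 for *Gstp1*, -0.13 ± 0.11 for *Gstm1*, 0.16 ± 0.081 for *Gsto1* and 0.01 ± 0.16 for *Mgst3*, whose sign turned with another scaling (-0.01 with RLE size factors). Over the alternatives the difference ran from 0.00 to 0.39 for *Gstp1*, -0.22 to -0.09 for *Gstm1* and 0.09 to 0.20 for *Gsto1*. For these 6 members no difference between the stimuli in the TBHQ change was therefore detected.

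**Figure D2:**
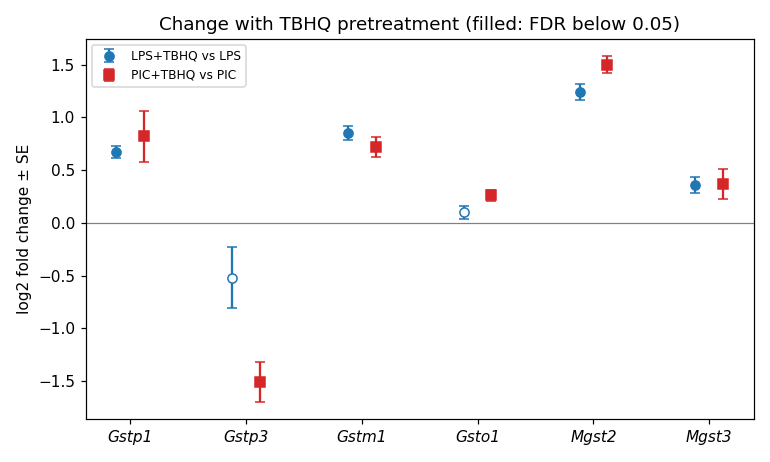
Log2 fold change (y axis) with TBHQ before the stimulus, for the 6 tested GST genes (x axis), in LPS (circles) and in PIC (squares). Bars are the SE from 3 libraries per condition, and filled symbols have an edgeR FDR below 0.05. *Gstp1*, *Gstm1*, *Mgst2* and *Mgst3* lie above 0 under both stimuli, and *Gstp3* lies below 0, filled for PIC alone.

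The alpha class gene *Gsta3* (ENSMUSG00000025934), known in mouse liver for detoxifying aflatoxin, was above the floor only in the LPS+TBHQ and PIC+TBHQ conditions. As TBHQ alone was harvested at 4 h, the stimulus and the longer time since TBHQ cannot be told apart here. Its counts were 2, 0 and 3 in control, 2, 0 and 3 with TBHQ, 1, 0 and 0 in LPS and 2, 3 and 3 in PIC. They were 10, 7 and 12 in LPS+TBHQ and 6, 15 and 9 in PIC+TBHQ. All 6 libraries of the combined conditions lay above the other 12. LPS+TBHQ held 24.4 times the LPS level (29 counts against 1, 95% Clopper-Pearson interval 4.05 to 997), and PIC+TBHQ 3.69 times the PIC level (30 counts against 8, interval 1.65 to 9.3). The 1 count in LPS came from replicate 1, and without it *Gsta3* was at least 2.72-fold higher in LPS+TBHQ, with the floor of 3 counts in each LPS library left. Against control the ratios were 5.5 (29 counts against 5, interval 2.1 to 18.2) and 6.36 (30 counts against 5, interval 2.44 to 21.0). Of the 5 control counts 3 came from replicate 3, and without it these ratios were 8.95 (interval 2.26 to 77.4) and 10.4 (2.63 to 89.4), while without control replicate 2, which held 0, they were 3.65 (1.4 to 12.1) and 4.23 (1.62 to 13.9). Without its highest library, PIC+TBHQ held 2.68 times the PIC level (15 counts against 8, interval 1.07 to 7.3). *Gsta3* did not pass the filter. Tested without one, it was called in LPS+TBHQ against LPS (edgeR FDR 7.7e-04) and against control (0.0143) and in PIC+TBHQ against control (0.00473), and not in PIC+TBHQ against PIC (0.0737). DESeq2 called it against control in LPS+TBHQ (FDR 0.0318) and PIC+TBHQ (FDR 0.0138) and gave no adjusted p for the comparisons with the stimulus. The filtered fits with 1 library left out gave no test of *Gsta3* without its highest library, replicate 3 of LPS+TBHQ or replicate 2 of PIC+TBHQ, so they are not used as a check of these calls. The intervals of the count ratios cover counting error only.

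The other alpha gene, *Gsta4*, whose enzyme is known for clearing 4-hydroxynonenal, had 7 counts in all, in 4 of the 18 libraries, and at most 3 in a library. *Gstk1*, the kappa gene, had 5 counts in all, at most 1 in each of 5 libraries. *Mgst1*, the microsomal transferase abundant in liver, had 2 counts in all, both in PIC+TBHQ replicate 2. At this depth no change could be detected for *Gsta4*, *Gstk1* or *Mgst1*, and no fold is given for them.

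**Figure D3:**
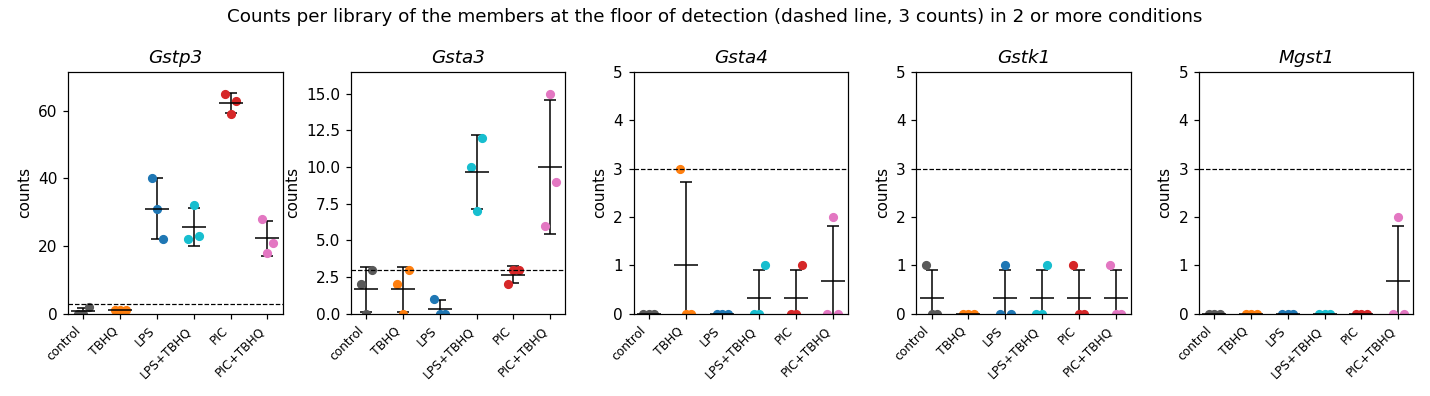
Counts in each library (y axis) of the 5 GST genes at the floor of detection in at least 2 conditions, by condition (x axis). Points are libraries, bars are the mean and SD of 3, and the dashed line is the floor of 3 counts. *Gstp3* leaves the floor with LPS or PIC, *Gsta3* is above it only in LPS+TBHQ and PIC+TBHQ, and *Gsta4*, *Gstk1* and *Mgst1* stay at or under it. TBHQ alone was harvested at 4 h.

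Ordered by mean FPKM, the conditions ranked differently from gene to gene, also within the pi class and the microsomal family. *Gstp1* went from 2.21 ± 0.748 to 5.54 ± 0.255 FPKM (SD, n = 3) in the order control, TBHQ, PIC, LPS, PIC+TBHQ, LPS+TBHQ, and of these neighbours only LPS and PIC+TBHQ did not overlap. *Gstm1* went from 11.5 ± 0.893 to 20.8 ± 0.287 FPKM in the order LPS, control, PIC, TBHQ, PIC+TBHQ, LPS+TBHQ, with gaps between PIC and TBHQ and between TBHQ and PIC+TBHQ. *Mgst2* went from 3.28 ± 0.275 to 12.6 ± 0.274 FPKM in the order PIC, LPS, control, TBHQ, PIC+TBHQ, LPS+TBHQ, and only TBHQ and PIC+TBHQ overlapped. So LPS+TBHQ was the top condition for these 3 genes, though its libraries overlapped those of PIC+TBHQ for *Gstp1* and *Gstm1*. *Mgst3* went from 10.9 ± 1.82 to 25.0 ± 2.81 FPKM in the order PIC, LPS, PIC+TBHQ, LPS+TBHQ, TBHQ, control, with gaps between LPS and PIC+TBHQ and between LPS+TBHQ and TBHQ. *Gsto1* went from 16.3 ± 0.824 to 26.2 ± 2.13 FPKM in the order PIC, PIC+TBHQ, TBHQ, LPS, LPS+TBHQ, control, with gaps at either end. *Gstp3* went from 0.0434 to 4.67 ± 0.573 FPKM in the order control, TBHQ, PIC+TBHQ, LPS+TBHQ, LPS, PIC, with gaps between TBHQ and PIC+TBHQ and between LPS and PIC.

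Across the 18 libraries, which fall in 6 conditions and so are not 18 independent points, pairs of members were alike, opposed or neither. Pearson's r of log2 CPM was 0.77 for *Gstm1* with *Mgst2* and 0.69 for *Gstp1* with *Gstm1*. It was -0.97 for *Gstp3* with *Mgst3*, of which the first was higher and the second lower with a stimulus, and -0.64 for *Gstp3* with *Gsto1*. In the control and TBHQ libraries *Gstp3* was at the floor. Other pairs were near 0, such as *Gstm1* with *Gsto1* (0.03) and *Gstp1* with *Gsto1* (-0.02), while *Mgst2* with *Mgst3* gave 0.39. Among 10451 genes with a mean of at least 50 counts, the pattern of *Gstm1* was most like those of *Ctnnb1* (0.97), *Card19* (0.96) and *Slc38a10* (0.952). That of *Mgst2* was most like *Mfsd6* (0.979), *Creg1* (0.954) and *Myo7a* (0.947). That of *Mgst3* was most like *Man2b1* (0.975), *Scd1* (0.971) and *Syngr1* (0.971). The nearest for *Gsto1* were *Hscb* (0.946), *Pacs1* (0.932) and *Cyp27a1* (0.925). For *Gstp1*, whose counts are lower, they were *Serpinb9b* (0.897), *Tor1a* (0.885) and *Ptprs* (0.878).

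The GST genes work on glutathione that other genes supply and on conjugates that others export, and 3 further lists were examined. The list of glutathione supply and recycling held 26 genes, of which 23 were tested. In LPS+TBHQ against LPS 12 of these were called higher and 2 lower, with a median log2 fold change of 0.32, beside a median of 0.00 and 23.9% called over all genes tested. In PIC+TBHQ against PIC they were 14 higher and 2 lower with a median of 0.29, beside 0.01 and 31.3%. *Gclm*, the regulatory subunit of the enzyme that starts glutathione synthesis, rose by 0.98 ± 0.031 (edgeR FDR 1.6e-21) and 1.1 ± 0.04 (edgeR FDR 1.7e-22). *Gsr*, which regenerates glutathione, rose by 0.67 ± 0.034 and 0.64 ± 0.074 (edgeR FDR 1.1e-13 and 4.5e-13), and *Pgd*, a source of NADPH, by 0.62 ± 0.015 and 0.56 ± 0.015 (edgeR FDR 5.6e-19 and 1.1e-17). *Slc7a11*, the cystine transporter, rose by 0.72 ± 0.031 and 0.41 ± 0.03 (edgeR FDR 3.7e-18 and 9.9e-12). *Glrx*, a glutaredoxin, was lower by -0.57 ± 0.054 and -0.57 ± 0.053 (edgeR FDR 3.9e-12 in both). *Esd*, which had the most counts of the list, rose by 0.39 ± 0.032 and 0.42 ± 0.028 (edgeR FDR 6.2e-12 and 6.6e-13).

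The list of conjugate export and mercapturate steps held 19 genes, of which 18 were found and 11 were tested. It shares *Ggt1*, *Ggt5* and *Ggt7*, which were not tested, with the supply list. With TBHQ before LPS 3 were called higher and 0 lower (median 0.09), and before PIC 5 higher and 0 lower (median 0.17), beside the same 23.9% and 31.3% of all genes. *Abcc3*, an exporter of conjugates, rose by 0.86 ± 0.11 and 1.03 ± 0.11 (edgeR FDR 2.9e-05 and 5.4e-06). *Abcc4* rose by 0.57 ± 0.05 and 0.66 ± 0.054 (edgeR FDR 1.6e-09 and 5.0e-11). *Abcc1*, with the most counts of the list, rose by 0.47 ± 0.031 and 0.38 ± 0.019 (edgeR FDR 3.9e-13 and 5.9e-11). The list of other GST and MAPEG genes held 25, of which 24 were found and 13 tested, and it was divided, beside the same shares: 2 higher and 3 lower before LPS (median 0.01), 2 higher and 1 lower before PIC (median 0.06). *Alox5ap*, a MAPEG protein of leukotriene synthesis, rose by 0.64 ± 0.074 and 0.57 ± 0.045 (edgeR FDR 6.0e-12 and 1.0e-10). *Gstt2*, a theta class GST, was higher by 0.53 ± 0.1 before PIC (edgeR FDR 0.00442), with 0.01 before LPS (edgeR FDR 0.972), and the difference of these changes was not called (0.52 ± 0.12, edgeR FDR 0.196). *Gstt1*, with 1 to 15 counts a library, fell before LPS (-1.56 ± 0.33, edgeR FDR 0.0309), a call lost with no filter (FDR 0.105) and without LPS replicate 1 (0.111), LPS replicate 3 (0.0989), LPS+TBHQ replicate 1 (0.064) or LPS+TBHQ replicate 2 (0.133), where the alternatives ran from 0.0138 to 0.133. Before PIC it gave -0.78 ± 0.44 (edgeR FDR 0.182), and the difference was not called (0.79 ± 0.55, edgeR FDR 0.674). *Clic4*, a GST-fold chloride channel protein with the most counts of this list, was lower by -0.23 ± 0.02 before LPS (edgeR FDR 1.1e-07) and -0.45 ± 0.023 before PIC (edgeR FDR 9.0e-15).

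Against the untreated cells the same lists can be set beside the GST genes. In LPS+TBHQ against control, the supply list had 14 genes called higher and 2 lower (median 0.80), the export list 4 and 0 (median 0.29) and the other GST and MAPEG genes 4 and 3 (median 0.09), beside a median of -0.01 and 43.7% called over all genes tested. In PIC+TBHQ against control, these counts were 14 and 5 (median 0.80), 7 and 0 (median 0.18) and 5 and 4 (median 0.06), beside 0.00 and 52.4%. With TBHQ alone they were 10 and 4 (median 0.14), 4 and 0 (median 0.09) and 3 and 2 (median 0.01), beside 0.00 and 29.0%. In the same order of lists, LPS alone gave 12 and 4 (median 0.27), 4 and 1 (median 0.05), and 4 and 3 (median -0.05), beside 48.1% of all genes. PIC alone gave 13 and 5 (median 0.26), 4 and 2 (median 0.05), and 5 and 6 (median -0.30), beside 58.7%. PIC against LPS gave 5 and 4 (median -0.01), 2 and 2 (median 0.00), and 4 and 3 (median 0.05), beside 27.7%.

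The promoters of the GST genes were searched for motifs because several of these genes were higher together where TBHQ preceded a stimulus. Promoter sequences are from RefSeq (build GRCm38.p6), 250 bases before to 50 after each start, and 9 of the 10 members matched, with 11 promoters; *Gsta4* did not. Both strands were searched for the core of the antioxidant response element, TGACNNNGC, which 12.4% of all 32851 promoters hold, for the AP-1 site, TGACTCA, which 5.2% hold, and for the core of the interferon-stimulated response element, GAAANNGAAA, which 3.44% hold. TGACTCA and TGACNNNGC can overlap, since both begin with TGAC. The antioxidant core matched in *Gsta3* at -121 from the start and in 1 promoter of *Mgst1* at -56 on the other strand. The AP-1 site matched in *Mgst2* at -52 and in *Gstp1* at -74 on the other strand. The interferon core matched in 0 of the 11. No motif matched in *Gstm1*, *Mgst3*, *Gsto1*, *Gstp3* or *Gstk1*. Of these, *Gstm1* and *Mgst3* were called higher with TBHQ before LPS and before PIC, and *Gsto1* before PIC. Whether the motifs bear on the changes was not tested. A match is a run of letters and not a shown binding site, and the absence of one covers this window and these exact letters only. Other forms of the antioxidant element were not searched for, also at the sites named here for AP-1. The 250 bases before the start are printed for 3 genes, 5′ to 3′ on the strand of the gene, with the match in capitals. Each holds a match, was above the floor in some condition, and had more counts with TBHQ before a stimulus than with the stimulus alone. Of these, *Gsta3* was not called before PIC. *Mgst1* also holds a match but was at the floor in all 6 conditions, so it is not printed. The 3 are *Gsta3* at chr1:21240335-21240584 (plus strand), *Mgst2* at chr3:51660929-51661178 (plus strand) and *Gstp1* at chr19:4037913-4038162 (minus strand).
Gsta3: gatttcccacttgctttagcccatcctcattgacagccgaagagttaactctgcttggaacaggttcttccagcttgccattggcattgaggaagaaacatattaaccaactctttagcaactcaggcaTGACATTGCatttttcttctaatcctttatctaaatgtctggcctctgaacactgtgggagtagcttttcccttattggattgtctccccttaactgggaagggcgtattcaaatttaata
Mgst2: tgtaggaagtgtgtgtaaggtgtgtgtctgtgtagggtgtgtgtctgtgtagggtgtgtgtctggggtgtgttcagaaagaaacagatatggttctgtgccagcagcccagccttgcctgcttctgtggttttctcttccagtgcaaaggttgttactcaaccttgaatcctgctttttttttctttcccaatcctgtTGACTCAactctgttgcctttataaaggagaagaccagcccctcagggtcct
Gstp1: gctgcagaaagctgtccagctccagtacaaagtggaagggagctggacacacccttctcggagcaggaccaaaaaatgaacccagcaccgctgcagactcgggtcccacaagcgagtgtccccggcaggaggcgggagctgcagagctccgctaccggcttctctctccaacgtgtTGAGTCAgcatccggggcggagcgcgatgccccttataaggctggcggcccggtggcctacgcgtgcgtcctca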

How the data were processed

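RNA from 18 libraries was sequenced as strand-specific poly(A) libraries. The authors deposited gene counts and FPKM, made per their notes with HISAT2, StringTie and featureCounts. FPKM were used for levels. They equal counts over gene length and library total with 1 constant per library. The notes name the genome build as both GRCm38 and mm39, and 0 of the 10 members start at the GRCm38 position, so file coordinates and RefSeq promoters were not mixed.

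Counts were tested with edgeR 4.0.16 (quasi-likelihood, TMM scaling, filterByExpr) in R 4.3.3, 1 fit on all 18 libraries, with Benjamini-Hochberg adjustment over 13691 genes. Standard errors come from the spread of log2 CPM with a prior count of 2. Ratios with few counts have a 95% Clopper-Pearson interval, for counting error only (scipy 1.17.1). Common dispersion was 0.00192. The fit was tested on simulated data.

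All 10 members are named. From the 3 lists, genes are named that were called with TBHQ before LPS or PIC and had an absolute log2 fold change above 0.5 there, with the gene of most counts. Members and lists were chosen with earlier results of these data known. Alternatives were DESeq2 1.42.0, RLE or total-size scaling, no filter, a mean of 50 counts, the compared conditions only, limma 3.58.1 on log2(FPKM + 1) and log2(FPKM + 0.1), 2 stricter thresholds, replicate number as a block, and each library left out. Proteins were not used here, and 1 list of marker genes is not reported here.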

Additional observations from a re-analysis of the deposited data

Results flagged for a closer look

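For 3 of the 47 list genes tested (6.38%), the change with TBHQ differed between the stimuli by the test of the difference itself, which called 1.83% of all 13691 genes. *Slc7a11*, the cystine transporter, rose by 0.72 on the log2 scale with TBHQ before LPS and by 0.41 before PIC, a difference of -0.31 ± 0.043 (SE, 3 libraries per condition; edgeR FDR 2.0e-04). *Clic4* was lower by -0.23 before LPS and -0.45 before PIC, a difference of -0.22 ± 0.031 (edgeR FDR 0.00176). *Hpgds*, a sigma class GST that makes prostaglandin D, was named after its values were seen. It was higher by 0.16 before LPS (edgeR FDR 0.0137) and lower by -0.11 before PIC (edgeR FDR 0.079), a difference of -0.27 ± 0.07 (edgeR FDR 0.0288). That call was lost in 9 of 21 alternatives, with the stricter thresholds not counted, where the FDR ran from 0.00371 to 0.0862. They were total library size (0.0776), limma with 1 (0.0604) or 0.1 (0.0634) added to FPKM, and the fits without replicate 1 of LPS (0.0832), PIC (0.0723), LPS+TBHQ (0.0813) or PIC+TBHQ (0.0862) and without replicate 2 of LPS+TBHQ (0.071) or PIC+TBHQ (0.065). The call before LPS was lost without LPS replicate 1 (0.0957) or LPS+TBHQ replicate 1 (0.0587), and the value before PIC was called with RLE size factors (0.042), a mean of 50 counts (0.0325), and without PIC replicate 3 (0.0209) or PIC+TBHQ replicate 3 (0.0401). The causes were not tested. None of the 6 tested GST members was called in this edgeR test.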

How the results depend on the processing

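For 86 changes of the members and the named list genes, 1338 values under an alternative were computed, with each left-out library counted singly. Of these 1288 had the reported direction and side of the threshold, 24 lost the call, 7 gained it and 19 turned sign. Under all the alternatives counted here, 73 of the 86 changes stayed on the same side of the threshold. The stricter thresholds are not among those counted, and the members called under them are given below. The cause of the changes was not tested.

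Values that turned sign were small and not called in the edgeR fit. With single libraries left out, the values ran from -0.03 to 0.47 for *Gstp1* in TBHQ against control, -0.01 to 0.11 for *Gstm1* in PIC against control and -0.10 to 0.14 for *Mgst3* in the difference of the TBHQ changes. They ran from -0.19 to 0.06 for *Mgst3* in PIC against LPS and from -0.01 to 0.05 for *Gstt2* in LPS+TBHQ against LPS. RLE size factors and no filter each gave -0.01 for *Mgst3* in that difference. Total library size gave *Gstm1* -0.19 in PIC against control and -0.01 in PIC against LPS. That scaling moved the median of all genes by -0.22 in PIC against control, -0.15 in PIC+TBHQ against control and -0.13 in PIC against LPS; relative to it *Gstm1* was at 0.03 and 0.12.

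It also moved the percent of all called genes that were higher: from 49.8 to 35.0 in LPS, 48.7 to 26.4 in PIC, 48.4 to 36.1 in LPS+TBHQ and 50.4 to 30.0 in PIC+TBHQ, all against control, from 48.9 to 59.5 in LPS+TBHQ against LPS, 50.6 to 70.3 in PIC+TBHQ against PIC, 53.7 to 18.4 in PIC against LPS and 45 to 76.1 in the difference of the TBHQ changes. For *Gstt1* in PIC+TBHQ against PIC, limma on log2(FPKM + 1) gave an FDR of 0.0268 (0.0268 to 0.542 over the alternatives).

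With an FDR below 0.01 and an absolute log2 fold change above 2, the members called were 1 in each of the 4 stimulated conditions against control (*Gstp3*), 0 with TBHQ alone, 0 in LPS+TBHQ against LPS, 0 in PIC+TBHQ against PIC and 0 in PIC against LPS. Over all genes tested the share called was 1.64% in LPS, 3.57% in PIC, 0.964% in LPS+TBHQ, 2.15% in PIC+TBHQ and 0.19% in TBHQ against control, and 0.387%, 0.299% and 0.307% in the last 3 comparisons. With an FDR below 0.05 and a limit of 1 there were 0 with TBHQ alone, 2 in each of LPS, LPS+TBHQ and PIC+TBHQ against control, 3 in PIC against control, 1 in LPS+TBHQ against LPS, 2 in PIC+TBHQ against PIC and 0 in PIC against LPS, beside shares of 7.46%, 13.2%, 5.27%, 9.26%, 1.99%, 1.86%, 2.38% and 1.84% in the same order of comparisons as the shares before. DESeq2 called 7 members against control in LPS+TBHQ and in PIC+TBHQ, where edgeR called 6. The added member was *Gsta3*, which the edgeR filter had removed. With no filter edgeR called *Gsta3* in these comparisons as well, and in LPS+TBHQ against LPS. Replicate numbers share only a number, and with them as a replicate block the same member counts were called in all 9 comparisons (4 in LPS+TBHQ against LPS, 6 in PIC+TBHQ against PIC), while the calls over all genes went from 3274 to 3316 and from 4285 to 4342. The mean of 50 counts gave no value for *Gstp3* and *Gstt1*. Depth limits *Gsta3*, *Gsta4*, *Gstk1* and *Mgst1*, which the filter removed. *Gstp3* passed the filter only through its stimulated libraries, which bears on its calls against control under every threshold.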
